A study of Oryza sativa Japonica Group with 12 samples.

Results

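The genes described here are 8 rice genes of the DREB1 and DREB2 subfamilies of transcription factors: DREB1A (LOC_Os09g35030), DREB1B (LOC_Os09g35010), DREB1C (LOC_Os06g03670), DREB1F (LOC_Os01g73770), DREB1G (LOC_Os02g45450), DREB1H (LOC_Os09g35020), DREB2A (LOC_Os01g07120) and DREB2B (LOC_Os05g27930). They were chosen by locus number, and all 8 were found among the 29358 loci of the deposited table. The study sequenced RNA of entire seedlings of rice (Oryza sativa, Japonica group) in 12 libraries, 3 for each of 4 groups. The groups were wild type (WT/NIP in the labels) without mannitol, WT after 6 h in 800 mM mannitol, the line raf-b2/3 without mannitol, and raf-b2/3 after the same mannitol treatment, all from 5-day-old seedlings. Mannitol is a sugar alcohol that draws water out of plant cells and so imposes osmotic stress. B2 and B3 RAFs are Raf-like protein kinases that act above the SnRK2 kinases in stress and abscisic acid signalling. The genotype label gives raf-b2/3 as a knockdown and the protocols as a mutant, the labels name no target locus, and a check of the targeted genes was therefore not made. The labels do not tell whether replicates were grown separately, and p-values here therefore reflect only library-to-library spread, which may be technical.

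DREB proteins belong to the AP2/ERF family and bind the dehydration-responsive element, a short promoter motif, through their AP2 domain. In plants the DREB1 genes, called CBF in Arabidopsis, are best known as fast and transient responders to cold, and the DREB2 genes as responders to drought, salt and heat. Both subfamilies are counted among the routes that act largely without abscisic acid, and genes for dehydrins, LEA proteins and enzymes of sugar and proline metabolism are among those reported to follow them.

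Expression is given as FPKM, fragment counts corrected for gene length and sequencing depth, so that levels can be set side by side between genes. Behind the FPKM values stood 35318469 to 37130482 recovered fragments per library, so library depth differed little. Differences were tested with limma on log2(FPKM + 1) across the 22371 loci that reached an FPKM of 1 in at least 3 libraries. A difference passed at a Benjamini-Hochberg adjusted p under 0.05. The scale understates the change of low genes, and for these the ratio of mean FPKM or the log2 change of recovered fragments by limma-voom is given as well. DREB1A, DREB1C, DREB2A and DREB2B were tested in this way. DREB1B, DREB1F, DREB1G and DREB1H were too low for the filter, and for them fits without it are named as such. The labelled tissue is the whole seedling, which holds several organs. The summed FPKM of 3 leaf markers was 8977 to 9831 in WT control and 6271 to 7236 in WT mannitol, and 9005 to 10019 and 7193 to 7824 in the same raf-b2/3 groups. That of 4 root markers was 115 to 497, 76.2 to 85.6, 551 to 661 and 59.8 to 89 in the same order of groups, and all 4 root markers fell with mannitol in both genotypes. Of the leaf markers only RCA, the gene of Rubisco activase, fell by limma (log2 -1.37 and -1.04, adjusted p 7.8e-06 and 8.4e-05), while CAB1R stood at log2 0.11 and 0.25 and CAB2R at -0.25 and -0.03 without passing. The summed FPKM of 2 seed endosperm markers was 2.55 to 3.66 over all libraries. Of these, GLUA1 rose with mannitol in WT and raf-b2/3 by limma without the filter (log2 0.47 and 0.53, adjusted p 0.0038 and 0.0018). GLUA2 stood at log2 -0.17 and -0.11 without passing. The part of these differences in the results below was not tested. In bulk seedlings, fewer cells of a type and less RNA per cell cannot be told apart.

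Mannitol raised DREB1A, DREB2A and DREB2B in both genotypes. The rise of mean FPKM was 8.06-fold and 3.77-fold for DREB1A in WT and raf-b2/3, 2.52-fold and 2.29-fold for DREB2A, and 1.59-fold in each genotype for DREB2B. DREB1B and DREB1G reached their highest levels in raf-b2/3 under mannitol, above every WT library, although both stayed near 1 FPKM. DREB1C varied more between libraries of a control group than between most groups. DREB1F and DREB1H were detected with few fragments.

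**Figure D1:**
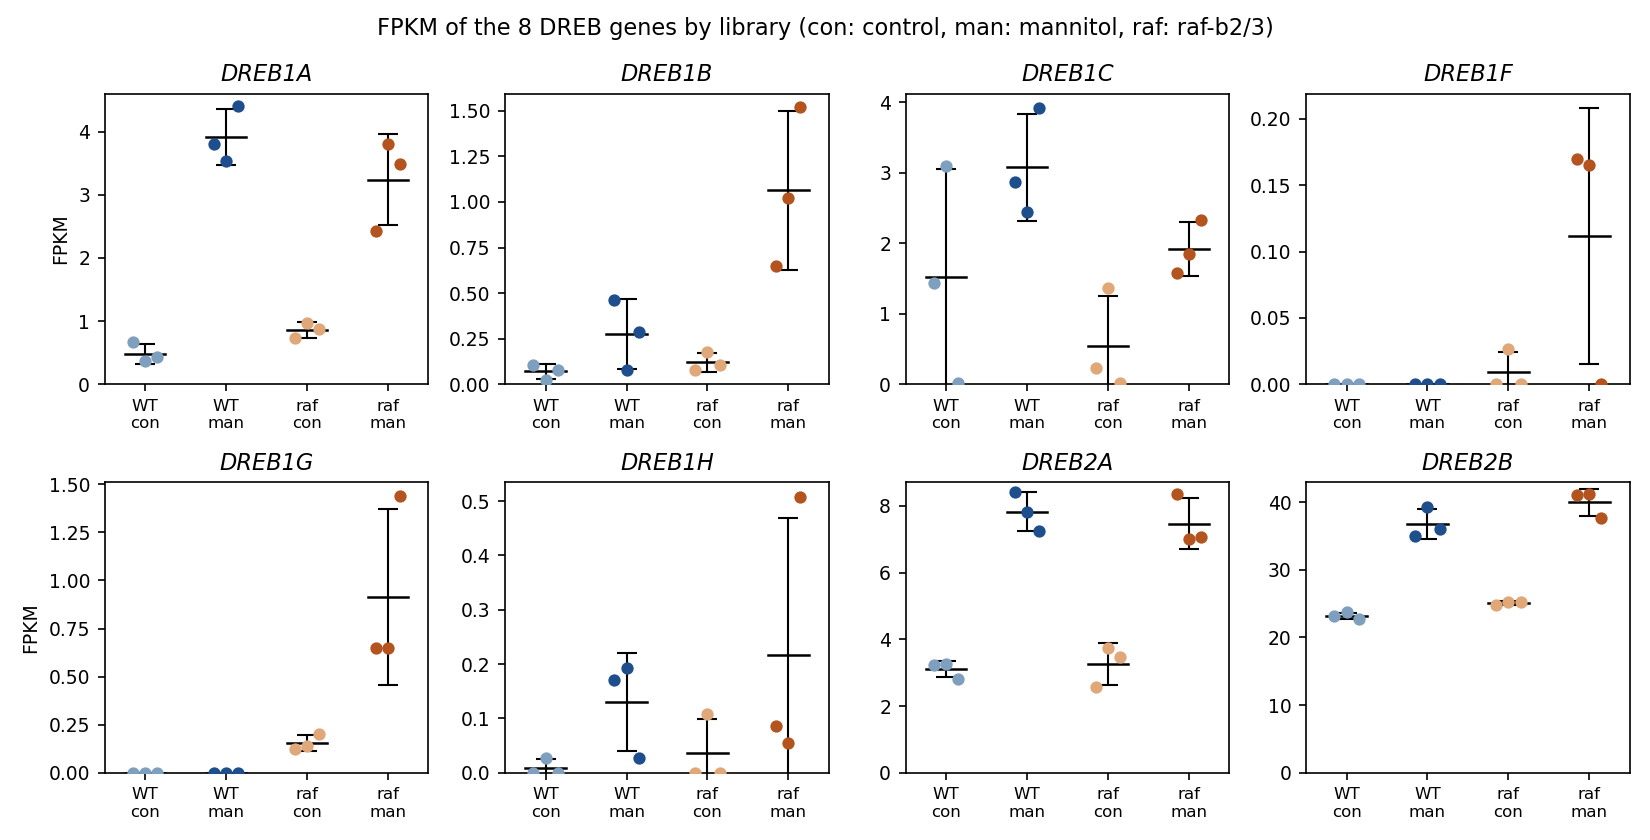
FPKM of the 8 genes in each of the 12 libraries, with a separate linear axis for each gene; points are libraries, the wide black bar is the mean of 3 and the thin bars are the SD, cut off at 0. DREB2A and DREB2B separate by treatment with little spread, DREB1B and DREB1G are highest in raf-b2/3 under mannitol, and DREB1C spreads from 0.0227 to 3.09 FPKM within WT control.

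DREB1A, a cold-induced member whose overexpression is known to raise stress tolerance, had the largest log2(FPKM + 1) change with mannitol among the 4 tested genes, although by limma-voom the raf-b2/3 change of DREB1C, which did not pass, was larger. Its FPKM was 0.663, 0.362 and 0.433 in the WT control libraries and 3.81, 3.54 and 4.40 in WT mannitol. The raf-b2/3 libraries had 0.732, 0.976 and 0.871 as controls and 2.43, 3.81 and 3.48 under mannitol. In both genotypes every mannitol library lay above every control library, and every raf-b2/3 control library lay above every WT control library, while the mannitol groups of the genotypes overlapped. The means were 0.486 ± 0.157, 3.92 ± 0.439, 0.86 ± 0.123 and 3.24 ± 0.721 FPKM in WT without and with mannitol and in raf-b2/3 without and with mannitol (SD, n = 3). The log2 change with mannitol was 1.73 (SE 0.14) in WT and 1.18 (SE 0.14) in raf-b2/3, with limma adjusted p of 5.0e-07 and 1.5e-05. On recovered fragments, where no constant is added to FPKM, limma-voom gave 3.03 (SE 0.33) and 1.88 (SE 0.28). DREB1A passed the filter through its mannitol libraries alone, its highest control being 0.976 FPKM, and without the filter the limma adjusted p was 1.4e-06 and 3.1e-05.

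The smaller DREB1A response of raf-b2/3 did not pass the test of the difference. The interaction of genotype and mannitol was -0.55 on the log2(FPKM + 1) scale, with a 95% interval of -0.98 to -0.13, a raw p of 0.015 and a limma adjusted p of 0.17. It was negative under all 21 alternative settings, from -1.14 to -0.41, with limma adjusted p between 0.14 and 0.3. Its parts lay on both sides, since raf-b2/3 stood higher without mannitol (log2 0.33, 95% interval 0.03 to 0.63, adjusted p 0.29) and lower with it (log2 -0.23, 95% interval -0.53 to 0.08, adjusted p 0.31). Ordered by mean, DREB1A rose from WT control through raf-b2/3 control and raf-b2/3 mannitol to WT mannitol, and only the step between raf-b2/3 control and raf-b2/3 mannitol passed the test.

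DREB1B and DREB1H lie beside DREB1A on chromosome 9, where the reference gene table lists DREB1B, DREB1H and DREB1A as immediate neighbours. DREB1B, like DREB1A, is known from cold induction in rice. Its FPKM was 0.107, 0.0257 and 0.0782 in WT control and 0.46, 0.0781 and 0.285 in WT mannitol. The raf-b2/3 control libraries had 0.0802, 0.179 and 0.105, and the raf-b2/3 mannitol libraries 0.651, 1.02 and 1.52. The WT groups overlapped, whereas in raf-b2/3 every mannitol library stood above every control library and above every WT mannitol library. The mannitol values rested on 17, 3 and 11 recovered fragments in WT and 24, 39 and 57 in raf-b2/3.

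Without the filter on low values, DREB1B rose with mannitol in raf-b2/3 by log2 0.86 (SE 0.14, limma adjusted p 3.5e-04), and in WT the change was 0.24 (SE 0.14, adjusted p 0.17). Under mannitol it was higher in raf-b2/3 than in WT by log2 0.69 (SE 0.14, limma adjusted p 0.0088), which is 3.89-fold in mean FPKM. Both of these calls were kept with any 1 of the 12 libraries left out, with limma adjusted p of at most 0.0021 and 0.038. On recovered fragments, limma-voom without a filter gave log2 2.99 (SE 0.62, adjusted p 0.0012) for the raf-b2/3 response, 1.64 (SE 0.78, adjusted p 0.094) for the WT response and 2.13 (SE 0.56, adjusted p 0.021) for the genotypes under mannitol. The difference between the genotypes' responses did not pass, at log2 0.62 (95% interval 0.18 to 1.05, limma adjusted p 0.15) without the filter and 1.34 (95% interval -0.80 to 3.49, adjusted p 0.59) by limma-voom. Without raf-b2/3 mannitol 1 the former was 0.77 with a limma adjusted p of 0.049. An exact permutation of treatment labels within genotype gave a raw two-sided p of 0.015 for DREB1B, and a permutation of genotype labels within treatment also gave 0.015. These belong to 16 such exact tests over the 8 genes, whose smallest possible p is 0.005.

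DREB1H, the third gene of the cluster, was at the limit of detection. It was listed at 0 in 2 of the 3 WT control and 2 of the 3 raf-b2/3 control libraries, and the others had 0.0271 and 0.108 FPKM. Under mannitol it had 0.171, 0.192 and 0.0273 FPKM in WT and 0.0859, 0.0555 and 0.508 in raf-b2/3, the last from 18 fragments and the others from at most 7. The WT groups did not overlap, by a margin of 0.0273 against 0.0271 FPKM, and the raf-b2/3 groups did. No comparison passed by limma without the filter, and the raw exact permutation p for mannitol was 0.035. By limma-voom without a filter the DREB1H changes with mannitol were log2 2.54 (SE 1.15, adjusted p 0.079) in WT and 2.41 (SE 1.08, adjusted p 0.076) in raf-b2/3. How reads shared by the similar DREB1 coding sequences were assigned is not given in the sources used here, so the split between DREB1A, DREB1B and DREB1H is uncertain to that extent.

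DREB1G, which has been linked to drought tolerance when overexpressed in rice, was listed at 0 in all 6 WT libraries and detected in all 6 raf-b2/3 libraries. In raf-b2/3 its FPKM was 0.124, 0.138 and 0.203 in the control group and 0.649, 0.649 and 1.44 in the mannitol group, from 6, 7 and 10 and from 31, 32 and 70 recovered fragments. The mannitol libraries of raf-b2/3 all lay above its control libraries, and all 6 lay above WT. The listed 0 is not a measured absence. In all 6 libraries of a genotype, 939 loci were so listed in WT and 610 in raf-b2/3, and none of these has an entry for that genotype in the authors' comparisons. A minimum near 7 fragments over the 6 libraries is inferred from the other loci. Of the 27492 with values in at least 8 libraries, 2 in WT and 1 in raf-b2/3 held under 7 recovered fragments, 7 and 1 held exactly 7, and 25 and 16 held 8. Over all loci with values 43 and 68 held under 7, nearly all of them with few non-zero libraries, where the recovery gives only the lowest number that the values allow. The ratios that follow assume that WT held at most 6 DREB1G fragments in all. If all 6 had fallen in the WT control group, raf-b2/3 control would be at least 3.84-fold higher, and if all 6 had fallen in WT mannitol, raf-b2/3 mannitol would be at least 22.5-fold higher.

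With mannitol, DREB1G rose in raf-b2/3 by 5.9-fold in mean FPKM. Without the filter the log2 change was 0.70 (SE 0.12, limma adjusted p 5.2e-04), and it passed with each of the 12 libraries left out in turn, at an adjusted p of at most 0.0028. On recovered fragments limma-voom gave log2 2.41 (SE 0.44, adjusted p 4.6e-04). The genotype difference under mannitol passed by limma without the filter (log2 0.91, SE 0.12, adjusted p 7.4e-04) and by limma-voom with 1 fragment set in each WT library (log2 4.82, SE 0.63, adjusted p 2.6e-04). All these DREB1G fits, and those without mannitol below, estimate spread over the 4 groups together. The WT groups, at the listed 0 or with 1 fragment set, add almost no spread, so the SE and adjusted p can be too small. The difference without mannitol passed by limma-voom at the listed 0 (adjusted p 0.018), but not with 1 fragment set in each WT library (log2 2.42, SE 0.71, adjusted p 0.13) or by limma without the filter (log2 0.21, SE 0.12, adjusted p 0.48), where it passed only with raf-b2/3 mannitol 3 left out (adjusted p 0.03) and not with any other of the 12. No WT response can be given, and the interaction is therefore not stated. The exact permutation of genotype labels within treatment gave the smallest raw p it allows, 0.005, as 1 of the 16 such tests. With WT listed at 0 throughout and every raf-b2/3 library above 0, that p followed from the listing and is no separate support. DREB1G was not alone in this pattern, being 1 of 25 loci among the 939 that had at least 6 fragments in each raf-b2/3 library, against 1 locus among the 610 in the opposite direction. The next listed loci on either side of it, LOC_Os02g45420 and LOC_Os02g45460, were detected in all WT libraries, at 0.164 to 1.95 and 6.23 to 19.8 FPKM. In raf-b2/3 they had 0.0611 to 1.08 and 6.1 to 20.9 FPKM. Under mannitol LOC_Os02g45420 was lower in raf-b2/3, at 0.705 to 1.08 against 1.46 to 1.95 FPKM in WT, as for 17.0% of tested loci. The locus beyond it, LOC_Os02g45400, was listed at 0 in raf-b2/3 and reached 0.0959 FPKM in WT control. The bearing of these loci on DREB1G was not tested.

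DREB1F, for which tolerance to salt, drought and cold has been reported on overexpression, was also listed at 0 in all WT libraries. In raf-b2/3 its control libraries had 0, 0.0268 and 0 FPKM and its mannitol libraries 0.17, 0.165 and 0, so the groups overlapped. Its mannitol values came from 6, 6 and 0 fragments. No comparison of DREB1F passed by limma without the filter, with adjusted p of 0.057 for the raf-b2/3 response and 0.1 for the genotypes under mannitol. Both passed when raf-b2/3 mannitol 3, the library at 0, was left out (adjusted p 6.5e-04 and 0.0025). That fit rested on 6 fragments in each of raf-b2/3 mannitol 1 and 2, with WT at the listed 0 without spread. Its passes are therefore no support for a rise or for a genotype difference. With at most 6 fragments assumed in WT, the ratio under mannitol is at least 2.03-fold on these counts, with counting error not included.

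DREB1C was uneven among control libraries. Its FPKM was 1.44, 3.09 and 0.0227 in WT control and 0.233, 1.36 and 0.0229 in raf-b2/3 control. The WT mannitol libraries had 2.87, 2.45 and 3.92, and the raf-b2/3 mannitol libraries 1.58, 1.85 and 2.33. Control 3 held a lone fragment in each genotype and control 2 was the highest control of each, whereas the mannitol libraries were even. The WT groups overlapped, the raf-b2/3 groups did not, and every raf-b2/3 mannitol library lay below every WT mannitol library.

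No comparison of DREB1C passed the test. The log2 change with mannitol was 0.90 (SE 0.42, limma adjusted p 0.079) in WT and 1.01 (SE 0.42, adjusted p 0.051) in raf-b2/3. In mean FPKM the DREB1C changes were 2.03-fold and 3.57-fold, and by limma-voom log2 2.50 (SE 1.04, adjusted p 0.051) and 3.07 (SE 1.41, adjusted p 0.074). The genotypes under mannitol differed by -0.47 (95% interval -1.39 to 0.44, adjusted p 0.5), and without mannitol by -0.59 (95% interval -1.50 to 0.32, adjusted p 0.55). The calls of the responses turned on single libraries and on the fit. Without WT control 2 the WT response was 1.35 (adjusted p 0.0081) and passed, and the raf-b2/3 response passed without WT control 2, WT control 3 or raf-b2/3 control 2 (adjusted p 0.019, 0.01 and 0.016). The raf-b2/3 response of DREB1C also passed when only the raf-b2/3 groups were fitted (limma adjusted p 0.015), whereas the WT response did not from the WT groups alone (adjusted p 0.11). In the raf-b2/3 groups alone, and without WT control 2 or raf-b2/3 control 2, DREB1C met the filter only with its mannitol libraries. The passes in those fits are therefore no support for a rise.

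The loci nearest to DREB1C over these libraries had much of its unevenness, which follows from their choice by nearness and is no separate support. By the root mean square difference of centred log2(FPKM + 1) over the 12 libraries, its nearest tested loci were LOC_Os02g52670, at 0.28, and LOC_Os12g32610 and LOC_Os05g49700, at 0.34 each, against a spread of DREB1C itself of 0.74. In WT control they had 1.88, 2.27 and 0.0271, 1.47, 3.7 and 0.133, and 1.36, 1.93 and 0.274 FPKM in libraries 1, 2 and 3. In raf-b2/3 control they had 0.111, 1.44 and 0.0547, 0.519, 1.59 and 0.617, and 0.562, 2.36 and 0.658 FPKM. Among the controls of both genotypes each was highest in control 2. In raf-b2/3, control 3 was below control 1 for DREB1C and LOC_Os02g52670, but above it for LOC_Os12g32610 and LOC_Os05g49700. The nearness is a description over libraries that share depth and handling, and the reference table gives these loci no name here.

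**Figure D2:**
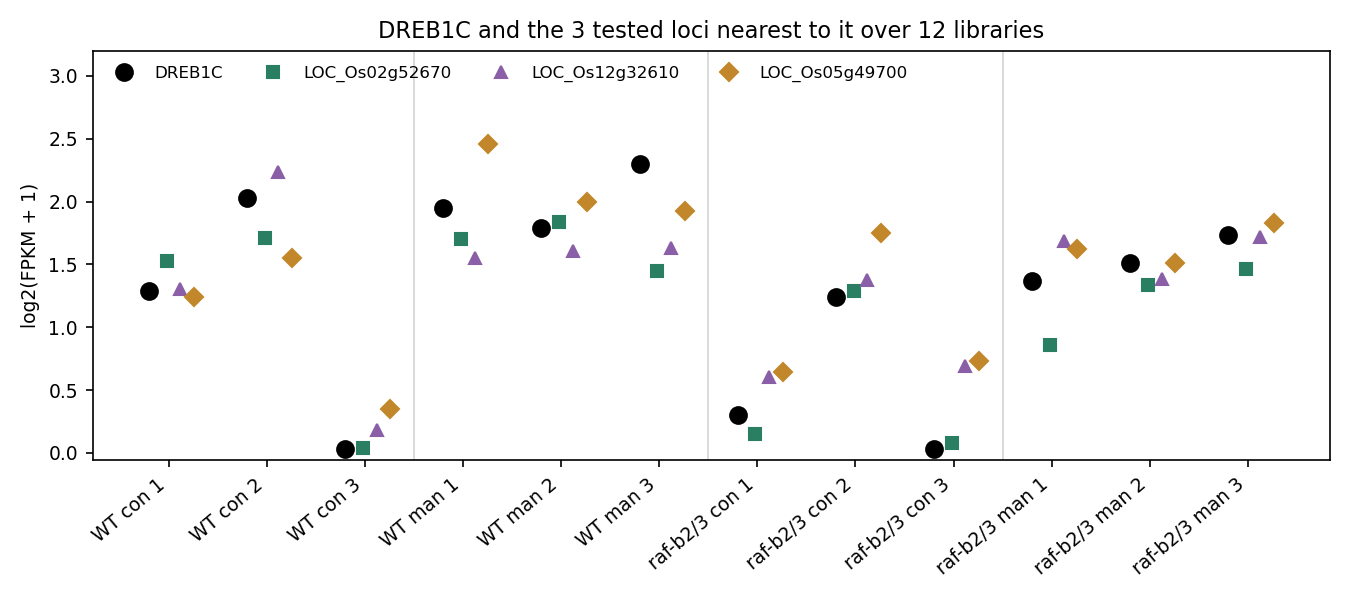
Levels of DREB1C (black circles) and its 3 nearest tested loci in each library, as log2(FPKM + 1); vertical lines part the 4 groups, con is control and man is mannitol. All 4 loci are low in WT control 3 and highest in control 2 among the control libraries of each genotype. The 3 loci were picked for nearness to DREB1C over these same libraries.

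DREB2A and DREB2B, the members tied to drought and heat responses, were the most abundant and the steadiest. DREB2A had 3.22, 3.27 and 2.82 FPKM in WT control and 8.42, 7.81 and 7.25 in WT mannitol. The raf-b2/3 controls had 2.56, 3.74 and 3.48, and raf-b2/3 under mannitol 8.34, 6.99 and 7.05. Every mannitol library exceeded every control library, and the genotypes overlapped in both treatments. The log2 change with mannitol was 1.10 (SE 0.11, limma adjusted p 4.3e-06) in WT and 1.0 (SE 0.11, adjusted p 1.2e-05) in raf-b2/3. The difference between these responses was -0.11 with a 95% interval of -0.46 to 0.24 (limma adjusted p 0.81).

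DREB2B, whose transcript is known in rice to be spliced into an active and an inactive form that the locus value does not separate, had 23.1, 23.7 and 22.8 FPKM in WT control and 35, 39.3 and 36 in WT mannitol. The raf-b2/3 controls had 24.8, 25.3 and 25.2, and raf-b2/3 under mannitol 41.1, 41.2 and 37.6. The treatments did not overlap, the control groups of the genotypes did not overlap either, and the mannitol groups did. The log2 change was 0.64 (SE 0.06, limma adjusted p 1.7e-06) in WT and 0.65 (SE 0.06, adjusted p 2.1e-06) in raf-b2/3, and the difference between them was 0.01 with a 95% interval of -0.18 to 0.19. In raf-b2/3 it was higher by log2 0.11 (95% interval -0.02 to 0.24, adjusted p 0.41) without mannitol and 0.12 (95% interval -0.01 to 0.25, adjusted p 0.22) with it. The exact permutation of genotype labels within treatment gave a raw p of 0.015 for this shift of 0.11, an increase of 1.08-fold and 1.09-fold in mean FPKM.

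**Figure D3:**
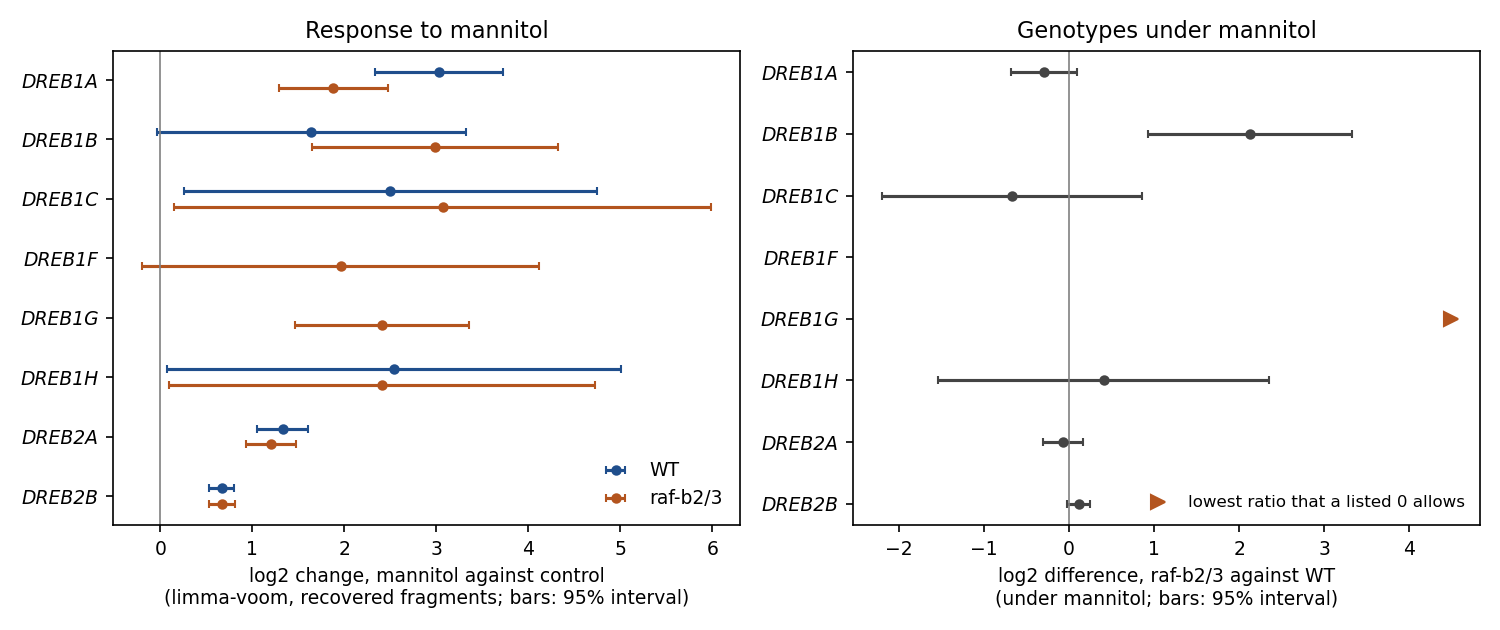
Log2 changes with mannitol in each genotype (left) and log2 differences of raf-b2/3 from WT under mannitol (right), from limma-voom on recovered fragments without a filter; bars are 95% intervals. WT values of DREB1F and DREB1G are not drawn because both are listed at 0 there, nor is DREB1F in the right panel, and the arrowhead marks the lowest DREB1G ratio if WT held at most 6 fragments, 22.5-fold. Response intervals lie above 0 in both genotypes for DREB1A, DREB1C, DREB1H, DREB2A and DREB2B, of which DREB1C and DREB1H did not pass after adjustment, and in raf-b2/3 for DREB1B and DREB1G, and the DREB1B interval lies above 0 in the comparison of genotypes.

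Counted over the 8 genes, 3 of the 4 tested rose with mannitol in WT and 3 of 4 in raf-b2/3, and none fell. DREB1A is among the 4 only through its mannitol libraries, its highest control being 0.976 FPKM. Its place in the counts with the filter, here and at a log2 change of at least 1, is therefore no support for a rise. Of all tested loci, 37.7% were called higher and 25.5% lower in WT, and 35.6% higher and 26.7% lower in raf-b2/3, so calls of this kind were common. With a log2 change of at least 1 as well, DREB1A and DREB2A passed in WT and DREB1A in raf-b2/3, where DREB2A lay just under that size, and the shares of all tested loci were 8.20% and 7.49%. Without the filter, 5 of 8 rose in raf-b2/3, DREB1B and DREB1G being added, and 3 of 8 in WT, beside 29.7% and 30.8% of loci. The mannitol libraries all lay above the control libraries for 4 of 8 genes in WT and 6 of 8 in raf-b2/3, against 35.5% and 33.0% of all listed loci.

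Between the genotypes, limma passed 0 of the 4 tested genes in the interaction, 0 without mannitol and 0 under mannitol, where 2.98%, 1.81% and 15.8% of all tested loci passed. At an unadjusted p under 0.05 the counts were 1, 1 and 0, the gene being DREB1A each time, beside 16.3%, 14.9% and 29.4% of tested loci. By limma-voom they were likewise 0 after adjustment, beside 1.64%, 1.73% and 16.3% of loci, and 1, 1 and 0 before it, beside 15.1%, 15.1% and 29.3%. Without the filter limma passed 2 of 8 as higher in raf-b2/3 under mannitol, DREB1B and DREB1G, beside 7.30% of loci. The DREB1G call set raf-b2/3 against WT values listed at 0, which have no spread. The raf-b2/3 libraries all lay above WT for 3 of 8 genes without mannitol (DREB1A, DREB1G and DREB2B) and for 2 under it (DREB1B and DREB1G), against 12.6% and 16.8% of all listed loci, and all lay below WT for DREB1C under mannitol, against 17.0% of tested loci.

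The summed FPKM of the 6 DREB1 genes was 2.08 ± 1.49 in WT control, 7.41 ± 1.19 in WT mannitol, 1.72 ± 0.926 in raf-b2/3 control and 7.47 ± 1.86 in raf-b2/3 mannitol (SD, n = 3). Under mannitol the libraries of the genotypes overlapped in this sum, and DREB1A made up 52.9% of its mean in WT and 43.4% in raf-b2/3. Leaving out the uneven DREB1C, the mean sums under mannitol were 4.32 ± 0.462 in WT and 5.55 ± 1.49 in raf-b2/3, of which DREB1A made up 90.6% and 58.4%, with DREB1B and DREB1G making up most of the rest in raf-b2/3. The difference in these shares was not tested. The DREB2 pair summed to 26.3 ± 0.693, 44.6 ± 2.19, 28.4 ± 0.903 and 47.4 ± 2.48 FPKM in the same order.

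A further 8 loci of the DREB family were looked at, of which 7 were listed and DREB1J (LOC_Os08g43200) alone passed the filter. DREB1J rose with mannitol from 0.0396 ± 0.0343 to 1 ± 0.221 FPKM in WT and from 0.01 ± 0.0174 to 0.9 ± 0.283 in raf-b2/3 (SD, n = 3). DREB1J passed the filter through its mannitol libraries alone, its highest control being 0.06 FPKM, so that its test with the filter is no support for a rise. Fitted without the filter, its log2 changes were 0.94 (SE 0.10) and 0.90 (SE 0.10), with limma adjusted p of 1.7e-05 and 2.9e-05, and their difference was -0.04 (adjusted p 0.93). Its listed neighbour DREB1I (LOC_Os08g43210) ranged from 0 to 0.0263 FPKM in the control groups, from 0.135 to 0.699 in WT mannitol and from 0.534 to 1 in raf-b2/3 mannitol. DREB2C (LOC_Os08g45110) ranged from 0 to 0.0891 FPKM in the control groups, from 0.41 to 0.651 in WT mannitol and from 0.109 to 0.267 in raf-b2/3 mannitol. Its raf-b2/3 mannitol libraries thus all lay below WT mannitol, as for 17.0% of tested loci. LOC_Os06g06970 went the other way under mannitol, at 0.0266 to 0.0555 FPKM in WT and 0.0808 to 0.356 in raf-b2/3, as for 16.8% of all listed loci. Without mannitol it was lower in raf-b2/3, at 0.027 to 0.0525 FPKM against 0.0803 to 0.109 in WT. All its values lay far under the filter. DREB1E, DREB2D and LOC_Os03g07830 overlapped between the genotypes under mannitol. Apart from DREB1J, none of these loci was tested in the main fit.

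Of 12 genes listed as acting above DREB factors, all were tested, and 5 rose and 2 fell with mannitol in WT, 5 rose and 3 fell in raf-b2/3. These shares are near those of all tested loci, of which 37.7% rose and 25.5% fell in WT and 35.6% and 26.7% in raf-b2/3. Their median log2 changes were 0.04 and 0.08, beside 0.09 and 0.07 over all tested loci. MAPK3 (LOC_Os03g17700), a MAP kinase that phosphorylates an ICE1-type activator of DREB1 genes in rice, changed most. It went from 9.18 ± 1.69 to 29.4 ± 1.93 FPKM in WT and from 11 ± 2.62 to 45.1 ± 4.7 in raf-b2/3, log2 changes of 1.59 (SE 0.15) and 1.96 (SE 0.15) with limma adjusted p of 1.9e-06 and 5.0e-07. Under mannitol MAPK3 was higher in raf-b2/3 by log2 0.60 (SE 0.15, limma adjusted p 0.018), whereas its interaction did not pass (log2 0.37, adjusted p 0.43). MYBS3 (LOC_Os10g41200), a repressor of DREB1 genes in the cold, rose by log2 0.95 and 0.97 in WT and raf-b2/3, with limma adjusted p of 1.2e-07 and 1.5e-07.

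The 12 genes reported to follow DREB factors, in rice or in other plants, mostly rose. In WT 11 rose and 1, the heat shock factor gene HSFA2D (LOC_Os03g06630), fell, and in raf-b2/3 10 rose and none fell, beside 37.7% higher and 25.5% lower among all tested loci in WT and 35.6% and 26.7% in raf-b2/3. The median log2 change of the list was 1.17 in WT and 1.37 in raf-b2/3, beside 0.09 and 0.07 over all tested loci. The list was chosen with earlier results of these data known, so its counts here and below are a description and no independent support. Many of these genes are also known to respond to abscisic acid. RAB16A (LOC_Os11g26790), a dehydrin gene, went from 23.7 ± 12.8 to 538 ± 85.2 FPKM in WT and from 7.05 ± 1.47 to 58.7 ± 28.3 in raf-b2/3. LIP9 (LOC_Os02g44870), a dehydrin gene first described from cold-treated rice, went from 72.4 ± 19.5 to 337 ± 8.02 and from 74.7 ± 30.7 to 181 ± 15.2. SALT (LOC_Os01g24710), a lectin gene, went from 223 ± 41.4 to 1488 ± 75.9 and from 204 ± 35.9 to 1275 ± 183, and P5CS2 (LOC_Os01g62900), an enzyme of proline synthesis, from 10.9 ± 0.47 to 44.8 ± 3.48 and from 8.64 ± 0.831 to 40.1 ± 4.31. LOC_Os03g45280 went from 868 ± 384 to 1957 ± 206 FPKM in WT and from 537 ± 295 to 1199 ± 334 in raf-b2/3. Its log2 changes were 1.27 and 1.26 (limma adjusted p 0.013 and 0.014).

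Under mannitol, 5 of these 12 genes were lower and 4 were higher in raf-b2/3 than in WT by limma, where 7.47% of all tested loci were lower and 8.37% higher. The lower ones included RAB16A (log2 -3.27, SE 0.39, adjusted p 2.1e-04), LEA3-1, a LEA protein gene (LOC_Os05g46480; log2 -2.77, SE 0.48, adjusted p 0.0024), and LIP9 (log2 -0.90, SE 0.24, adjusted p 0.024). The higher ones were the trehalose-6-phosphate phosphatase genes TPP1 (LOC_Os02g44230; log2 1.02, SE 0.17, adjusted p 0.0019) and TPP2 (LOC_Os10g40550; log2 0.90, SE 0.22, adjusted p 0.017) and the heat shock factor genes HSFA3 (LOC_Os02g32590; log2 0.61, SE 0.14, adjusted p 0.0098) and HSFA2D (log2 1.06, SE 0.18, adjusted p 0.0018). TPP1 had 5.25 to 5.88 FPKM in WT mannitol and 9.75 to 14.3 in raf-b2/3 mannitol. SALT and P5CS2 did not pass in this comparison, at log2 -0.23 and -0.16 (adjusted p 0.36 and 0.27). None of the 12 passed between the genotypes without mannitol by limma, where 1.81% of tested loci did.

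**Figure D4:**
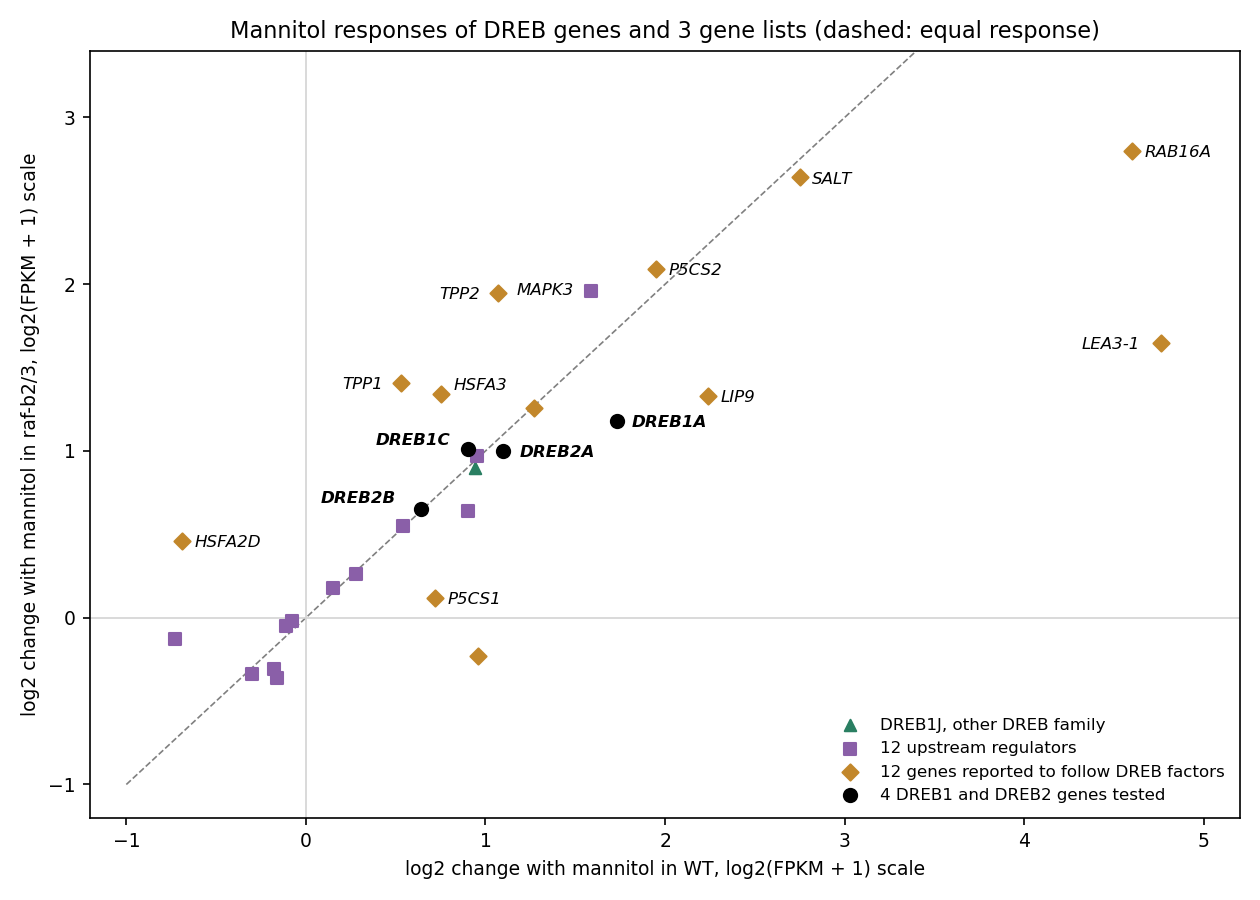
Log2 change with mannitol in WT (horizontal) and in raf-b2/3 (vertical) on the log2(FPKM + 1) scale, for the 4 tested DREB1 and DREB2 genes, DREB1J, 12 upstream regulators and 12 genes reported to follow DREB factors; each point is a gene and the dashed line marks an equal response. DREB2A and DREB2B lie close to the line, DREB1A at 1.73 and 1.18 lies under it, and LEA3-1 and RAB16A lie farthest under it.

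The tested DREB genes with even replicates had near matches among other loci. For DREB1A the nearest was LOC_Os08g42960, at a root mean square difference of 0.14 (log2) over 12 libraries against a spread of DREB1A itself of 0.75. LOC_Os08g42960 ranged from 5.98 to 8.95 FPKM without mannitol and from 18.8 to 22.2 with it. The nearest locus of DREB2A was LOC_Os09g30474, at 0.09 against 0.54, and that of DREB2B was LOC_Os03g30790, at 0.05 against 0.33. The last match says little, since a small and even rise was common.

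The authors' deposited table, from its own comparison within each genotype, gives DREB1A log2 fold changes of 2.91 (WT) and 1.84 (raf-b2/3) and classes it among genes raised in WT alone. Its p-values from that comparison were nevertheless 3.51e-20 in WT and 7.81e-10 in raf-b2/3, with the direction given as up in both. In the authors' deposited table DREB1B stands at 1.87 in WT (p 0.0938) and 3.06 in raf-b2/3 (p 2.73e-06) and is classed among genes raised in raf-b2/3 alone. The authors' deposited table puts DREB1G in the same class, at 2.49 in raf-b2/3 (p 2.23e-05), and has no WT entry for it. Those classes are not tests of the difference between genotypes, which by limma did not pass for DREB1A or DREB1B. DREB2A stands at 1.22 and 1.12 and DREB2B at 0.557 and 0.595 in the authors' deposited table.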

How the data were processed

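The authors deposited a table of FPKM for 29358 loci in 12 libraries, with log2 fold changes and p-values of their own for mannitol within each genotype. Per the submitters' processing notes, the reads were trimmed with Trimmomatic and the genome build was IRGSP-1.0. The sources used here do not give the aligner, annotation or strand setting. The library kit was directional, per the labels' protocols.

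limma 3.58.1 (R 4.3.3) was fitted to log2(FPKM + 1) with 4 group means over all 12 libraries, for 22371 loci with FPKM of at least 1 in 3 libraries, with Benjamini-Hochberg adjustment, and was tested on simulated data. Whole fragments were recovered from the FPKM steps for 29339 loci, within 0.01 of a fragment, and fitted by limma-voom as an alternative. The recovery assumes library depths within 0.8 to 1.3 of the first library and fails on simulated data outside that range. The depths found were 0.982 to 1.041 of it, and a search from 0.4 to 2.4 gave the same depth for 11 of 11 libraries. Recovered fragments cover counting error only. The 4 genes under the filter led to 3 added alternatives, and to exact permutation tests over 400 arrangements, all chosen after seeing the data. Other alternatives changed the pseudocount, filter, scaling, samples and replicate block.

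All 8 genes, and every listed gene that reached an adjusted p under 0.05 with a log2 change of at least 1, were to be named, others being added after their values were seen. The genes and lists were chosen with earlier results of these data known. Gene names were compared with RefSeq genes of assembly ASM3414082v1 by chromosome and order: 38 of 49 matched, and 11 had no symbol and are given by locus number.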

Additional observations from a re-analysis of the deposited data

Results flagged for a closer look

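The responses to mannitol of 5 listed genes differed between the genotypes by limma's interaction term, and none of them is a DREB gene. Of 12 upstream regulators 1 passed, and of 12 genes reported to follow DREB factors 1 passed above 0 and 3 below. Among all tested loci 2.98% passed in either direction. The lists were chosen with earlier results of these data known, so these counts are a description and no independent support. LEA3-1 rose by less in raf-b2/3 (interaction log2 -3.11, SE 0.68, adjusted p 0.03), going from 24.2 ± 15.9 to 566 ± 102 FPKM in WT and from 26.8 ± 12.2 to 84 ± 26.1 in raf-b2/3 (SD, n = 3). P5CS1, which encodes an enzyme of proline synthesis, had an interaction of -0.60 (SE 0.11, adjusted p 0.016), from 35.7 ± 1.25 to 59.6 ± 6 FPKM in WT and from 40.2 ± 2.95 to 43.7 ± 2.45 in raf-b2/3. LOC_Os03g20120 had an interaction of -1.19 (SE 0.21, adjusted p 0.011), from 5.51 ± 0.83 to 11.7 ± 1.12 FPKM in WT and from 5.87 ± 0.855 to 4.92 ± 1.21 in raf-b2/3. HSFA2D fell in WT and rose in raf-b2/3 (interaction log2 1.15, SE 0.25, adjusted p 0.029), from 10.4 ± 0.432 to 6.06 ± 0.869 FPKM and from 9.89 ± 2.65 to 13.9 ± 3.39. LOC_Os03g56950, on the list of upstream regulators, fell in WT from 12.5 ± 0.105 to 7.11 ± 0.446 FPKM and stood at 12.2 ± 0.755 and 11.1 ± 0.446 in raf-b2/3 (interaction log2 0.61, SE 0.10, adjusted p 0.0067).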

How the results depend on the processing

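DREB1A, DREB2A and DREB2B kept their rise with mannitol in both genotypes under all 22 alternatives, at an adjusted p of at most 3e-04. Most of these keep the filter, which DREB1A met through its mannitol libraries, so its calls there are no support for a rise. Without the filter, the limma adjusted p of DREB1A was 1.4e-06 in WT and 3.1e-05 in raf-b2/3. Of the recomputed counts of the 8 genes, 7 moved and 102 stayed within 1.5 times. Without the filter, by limma and by limma-voom with the listed 0 kept or set to 1 fragment, the count was 5 in the raf-b2/3 response and 2 between genotypes under mannitol, and without mannitol limma-voom at the listed 0 gave 1.

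Small differences changed sign without passing. The DREB1C interaction was -0.44 with both WT control 2 and raf-b2/3 mannitol 3 left out, and with libraries left out singly it ran from -0.34 to 0.66, below 0 at -0.34 and -0.13. The DREB2A difference without mannitol was -0.01 under quantile normalization and -0.04 to 0.17 with a library left out, below 0 at -0.04 and -0.01, and the DREB2B interaction was -0.03 to 0.05 with a library left out, below 0 at -0.03, -0.02, -0.01 and -0.00. The cause was not tested.

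The labels do not tell whether replicate numbers pair the libraries. Same-numbered deviations correlated at r of -0.31 to 0.26, over 0.1 in 4 of 18 pairs, which cannot settle it. With a replicate block, the member counts were 4 in the raf-b2/3 response, 3 in the WT response and 0 in the others. The gene added was DREB1C (adjusted p 0.047).

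Over all loci, 666 passed the interaction, against 367 by limma-voom and 263 without WT mannitol 1, and 404 passed between the genotypes without mannitol, against 168 from those groups alone. Under mannitol 3544 passed, against 2048 without WT mannitol 1. Depth limits DREB1B, DREB1F, DREB1G and DREB1H, which had at most 70 fragments in a library.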
